A study of Mus musculus with 16 samples.

Results

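The 10 transcription factors described here are Prrx1, Runx1, Runx2, Snai1, Snai2, Twist1, Zeb1, Zeb2, Cebpb and Stat3, a set chosen by gene symbol because these factors are associated with the mesenchymal state. Of the 10, 9 were among the 26466 genes of the table that holds every library, and Twist1 was listed only in the separate tables of each tumour kind. Bulk RNA-seq had been carried out on 16 transplanted mouse tumours of 2 glioblastoma (GBM) models built on different lineages, which the labels name Type 1 and Type 2, with and without depletion of tumour-associated macrophages (TAMs). The study asked whether these tumours depend on their TAMs. Type 1 was represented by 5 Control and 3 TAM depleted tumours, and Type 2 by 4 of each. The sources used here do not give the strain, age, driver alleles or founder cell of either model, nor the way TAMs were depleted. The labels do not say which animal carried which tumour, and the p-values accordingly reflect variation among these libraries, which may be technical.

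The mesenchymal state of GBM is an expression programme rich in matrix, adhesion and wound-repair genes. STAT3 and C/EBPβ, together with RUNX1, are known as regulators of this programme in glioma cells. SNAIL (Snai1), SLUG (Snai2), TWIST1, ZEB1, ZEB2 and PRRX1 are known from epithelial to mesenchymal transition, in which several of them repress epithelial genes such as Cdh1. Several are also expressed outside tumour cells: RUNX1, C/EBPβ and STAT3 act in macrophages, PRRX1 and TWIST1 in fibroblasts, and ZEB1 and ZEB2 in neural and glial progenitors.

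Recovered depth was 4.215 to 18.257 M (mega) reads per library. The libraries fell into sets of 9 with high and 7 with low background, separated at 2500 reads per M reads in 974 odour and pheromone receptor genes. In Type 1 every Control library was high-background (5.828 to 7.628 M reads) and every TAM depleted library low-background (14.272 to 15.951 M reads), so depletion, background and depth cannot be told apart there. In Type 2 each set held 2 Control and 2 TAM depleted libraries. A background term in a fit could thus be estimated from Type 2 libraries only. The summed level of 12 macrophage genes ranged from 3551.7 to 9690.1 normalized counts in Type 2 Control and from 1705.3 to 3522.2 in Type 2 TAM depleted tumours, without overlap. In Type 1 the ranges overlapped, 1733.9 to 3538.5 in Control and 1432.2 to 3378.6 in TAM depleted tumours, and 0 of the 12 genes passed the test, in a comparison that called 0 of all 26463 genes. There 10 of the 12 were below 0, with a median log2 fold change of -0.18 against -0.06 over all genes. By mean count instead of mean log2, Cd68, C1qa, C1qb, Fcer1g and Tyrobp were higher in TAM depleted tumours and the other macrophage genes lower. For some genes the direction thus differed between these measures. Adgre1 (F4/80) was the 1 gene lower without overlap, a pattern that 28.6% of all genes showed (141 ± 26.8 in Control, n = 5, and 50.2 ± 30.8 in TAM depleted, n = 3; SD; log2 -1.67, SE 0.45, limma-trend adjusted p = 0.103). The glioma genes Sox2, Olig2, Nes, Gfap, Sox9 and Pdgfra were present in every group, with sums from 1786.4 to 20429.7.

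All values below are normalized counts, that is reads divided by the size factor of the library, and fold changes are differences of mean log2(normalized count + 1), which understates changes of low genes. A gene was called when its limma-trend p-value, adjusted by the Benjamini-Hochberg method over 26463 genes, was under 0.05. In bulk tissue, fewer cells of a type and less RNA per cell cannot be told apart.

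Between the Control tumours, 4 of the 9 factors were higher in Type 2 than in Type 1 and 0 were lower: Prrx1, Runx1, Zeb2 and Stat3. Over all genes tested, 2.28% were called higher and 0.816% lower in this comparison. All 9 fold changes were above 0, with a median of 1.38 against -0.23 over all genes tested. The 4 called factors were also those whose Type 1 and Type 2 Control libraries did not overlap, which held for 5.03% of all genes in this direction. Within the high-background libraries alone, where 2 Type 2 Controls remain, 1 of the 9 was called (Prrx1), while 1.51% of all genes were called higher and 2.49% lower. The balance over all genes thus went from mostly higher (603 against 216) to mostly lower (399 against 658). With background as a term of the fit, 4 of the 9 were called higher and 0 lower, beside 1.82% of all genes called higher and 2.81% lower (482 against 744). Snai1, Zeb1 and Cebpb turned below 0 in both of these fits. Leaving out Type 1 Control 5, or Type 2 Control 2, left 2 of the 9 called, with 550 and 703 genes called in all. With upper quartile scaling the same 4 factors were called, while the genes called went from 603 higher and 216 lower to 626 and 445 and the median of all genes went to -0.34.

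After TAM depletion in Type 2, 2 of the 9 factors fell, Prrx1 and Runx1, and 0 rose. Over all genes, 1.24% were called lower and 2.37% higher. The groups did not overlap for Prrx1 only, a pattern that 3.39% of all genes showed in the lower direction. The median fold change of the 9 was -0.40, against -0.21 over all genes. Runx1 passed narrowly and lost the call in 18 of 28 alternative analyses. With upper quartile scaling the same 2 factors were called, the genes called went from 627 higher and 329 lower to 673 and 618, and the median of all genes went to -0.41. Prrx1 was the single call when any 1 of 12 libraries was left out: Type 1 Controls 1 to 5, Type 1 TAM depleted 1 and 2, Type 2 Controls 3 and 4, and Type 2 TAM depleted 1 to 3. Libraries of Type 1 matter here because all 4 groups share the estimate of spread.

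In Type 1, 0 of the 9 factors were called after TAM depletion by limma-trend or by limma-voom, and limma-trend called 0% of all genes in either direction. At an unadjusted p under 0.05 there were 3 factors (Runx1, Snai2 and Zeb2) and 8019 genes. Runx1 and Snai2 were lower and Zeb1 higher without overlap of the groups, patterns that 28.6% (lower) and 10.5% (higher) of all genes showed. In the table of Type 1 libraries alone, 5 of 10 factors were called, Runx1, Snai2 and Twist1 lower and Zeb1 and Zeb2 higher. The same fit called 32.6% of all genes lower and 22.5% higher, so a call is common in that table. In the table of Type 2 libraries alone, 0 of 10 factors and 0% of all genes were called in either direction by limma-trend, with Prrx1, Runx1 and Snai2 at an unadjusted p under 0.05.

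The difference between the depletion responses of Type 2 and Type 1 was called by limma-trend for 0 of 9 factors and 0% of genes in either direction (0 of 9 by limma-voom), with 1 factor (Prrx1) and 2666 genes at an unadjusted p under 0.05. Between the depleted tumours, 0 of 9 factors were called by limma-trend or limma-voom, with 3 (Prrx1, Runx1 and Runx2) and 3206 genes at an unadjusted p under 0.05. Over all genes, 0.0567% were called higher and 0.128% lower in Type 2. All 9 fold changes were again above 0, with a median of 0.90 against 0.11 over all genes. Runx1 and Runx2 did not overlap between these groups, a pattern of 3.30% of all genes in this direction. These comparisons share groups of libraries, so their values for a factor are not independent of each other.

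**Figure D1:**
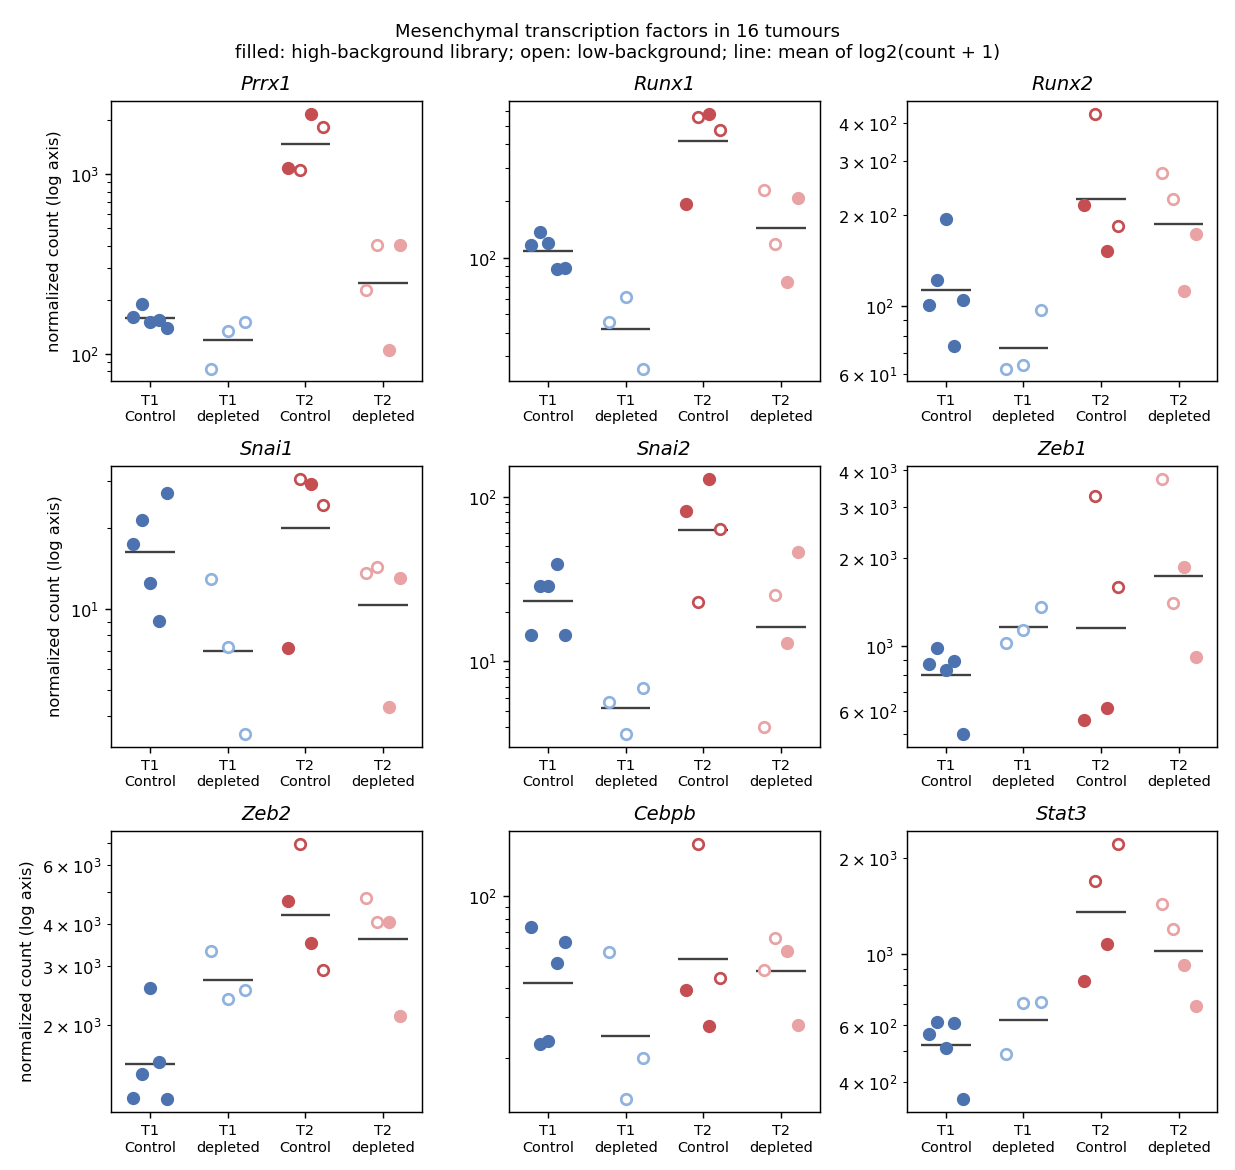
Normalized counts of 9 transcription factors in 16 tumours, 1 point per library, on log axes, with Type 1 (T1) groups in blue and Type 2 (T2) groups in red. Filled points are high-background and open points low-background libraries, and each line marks the mean on the log2(count + 1) scale. The 4 Type 2 Control libraries of Prrx1 lie from 1054 to 2181, above every other library.

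**Figure D2:**
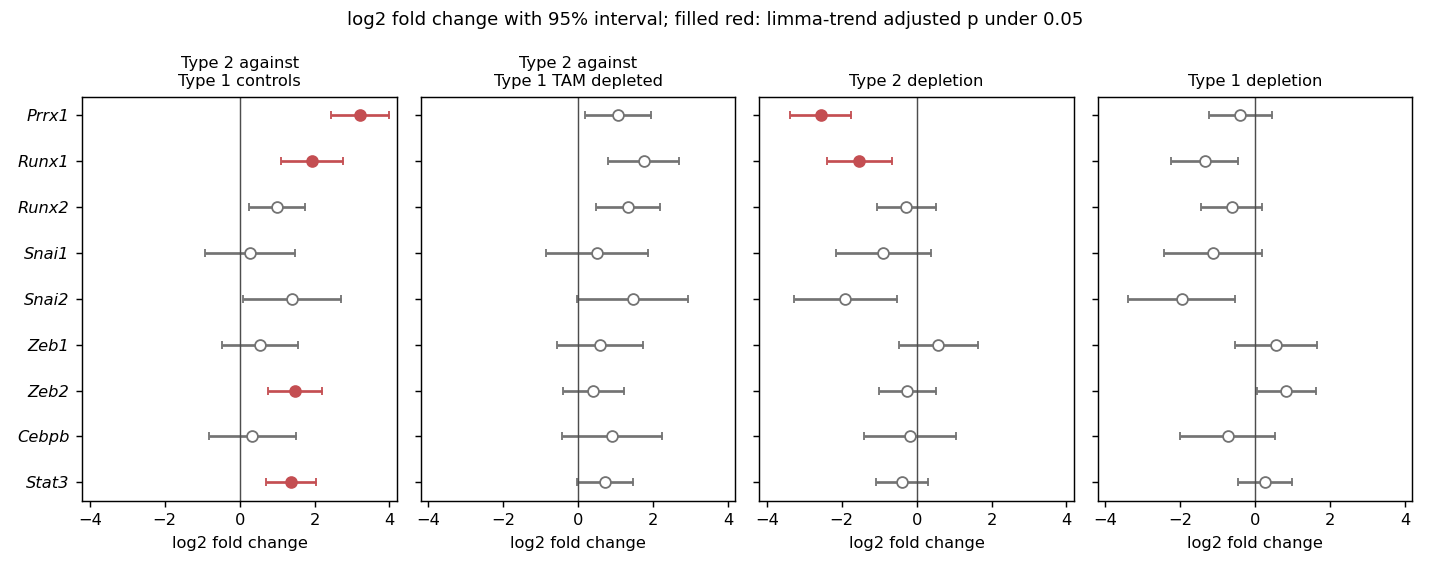
Log2 fold change of each factor in 4 comparisons, with its 95% interval from limma-trend (the first-named group, or TAM depleted, minus the other). Filled red points passed an adjusted p of 0.05: 4 factors between the controls, 2 after depletion in Type 2, and 0 in the other 2 panels.

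Within a group the factors differed widely in level. Per kilobase of exon, Zeb2, Zeb1 and Stat3 held the first 3 places in all 4 groups. In Type 1 Control tumours the order ran from Zeb2 (79.8 ± 28.7 normalized counts per kilobase, SD, n = 5) and Zeb1 (79.5 ± 18.0) through Stat3 (55.6 ± 11.3), Cebpb (31.2 ± 15.2), Prrx1 (14.3 ± 1.66), Runx2 (13.5 ± 5.11), Snai2 (12.4 ± 5.26) and Snai1 (10.8 ± 4.41) to Runx1 (9.11 ± 1.76). Each neighbouring pair in that order overlapped. In Type 2 Control tumours Prrx1 came after Zeb1, at 139 ± 50.7 per kilobase (SD, n = 4), overlapping Zeb1 (147 ± 123) and the next gene, Cebpb (46.4 ± 43.8). In Type 2 TAM depleted tumours it came after Cebpb, at 25.6 ± 13.2. Only the steps from Zeb1 to Stat3 and from Stat3 to Cebpb in Type 1 TAM depleted tumours, and from Stat3 to Cebpb in Type 2 TAM depleted tumours, separated neighbours without overlap.

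Prrx1 encodes a paired-related homeobox protein of limb, craniofacial and other mesenchyme (chr1:163245119-163313710, minus strand, GRCm38). Its promoter window in RefSeq (GRCm38.p6, chr1:163313601-163313900, minus strand, 250 bases before to 50 after the start) is shown because this gene had the largest change of the 9 in both Type 2 comparisons that made calls. Both strands of each window were searched for 4 motifs of the factors: ACCACA (RUNX), CAGGTG (the E-box of SNAI and ZEB), TTCNNNGAA (STAT) and TTGCNNAA (C/EBP). None was found in these letters, which are therefore all in lower case.

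Prrx1 window: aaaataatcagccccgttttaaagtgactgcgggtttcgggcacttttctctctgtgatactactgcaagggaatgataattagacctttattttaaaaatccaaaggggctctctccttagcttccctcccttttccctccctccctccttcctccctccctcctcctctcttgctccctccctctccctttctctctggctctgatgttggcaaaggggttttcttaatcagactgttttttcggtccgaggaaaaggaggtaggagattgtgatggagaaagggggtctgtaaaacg

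In Type 1 Control tumours 1 to 5, Prrx1 stood at 159, 188, 150.0, 154 and 139 normalized counts. In Type 1 TAM depleted tumours 1 to 3 it stood at 82.6, 134 and 151. Type 2 Control tumours 1 to 4 had 1090.3, 1054, 2181 and 1846. Every Type 2 Control library was thus above every Type 1 library. Type 2 TAM depleted tumours 1 to 4 had 225, 402, 105 and 402, below every Type 2 Control, with depleted tumour 3 inside the Type 1 range. Between the controls the difference was 9.28-fold (log2 3.21, SE 0.37, limma-trend adjusted p = 0.000116). It was called in each of 26 alternative analyses, with log2 values from 3.02 to 3.37. After depletion in Type 2 Prrx1 fell 5.88-fold, from 1543 ± 560 to 283 ± 145 (SD, n = 4 each; log2 -2.56, SE 0.39, adjusted p = 0.00917). Within the high-background libraries the log2 difference was -2.90 and within the low-background ones -2.21, with 2 against 2 libraries in each. Neither subset could overlap, since the full groups did not. The call was lost among 28 alternatives in the low-background libraries alone (adjusted p = 0.274) and in the Type 2 table alone (adjusted p = 0.112), fits that called 0 genes of any kind.

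In Type 1 the Prrx1 groups overlapped (158 ± 18.4 in Control, n = 5, and 123 ± 35.6 in TAM depleted, n = 3; SD; log2 -0.40, SE 0.40, adjusted p = 0.473). The difference between the 2 depletion responses was -2.15 (SE 0.56), with an unadjusted p of 0.00123 and an adjusted p of 0.433, so it was not called. Between the depleted tumours Prrx1 was 2.08-fold higher in Type 2 (log2 1.06, SE 0.42, adjusted p = 0.326), and the libraries overlapped.

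The fibroblast genes measured in the same libraries also had their highest mean summed level, 4321, in Type 2 Control tumours. The summed level of 7 fibroblast genes (Col1a1, Col1a2, Col3a1, Dcn, Lum, Fbln1 and Ogn) was 777.9 to 1528.4 in Type 1 Control, 566.4 to 648.5 in Type 1 TAM depleted, 2977.6 to 6571.8 in Type 2 Control and 933.0 to 3967.4 in Type 2 TAM depleted tumours, and none of the 7 was at 0 in a group. Col1a1 weighed most in this sum, with means of 232 in Type 1 Control and 2524 in Type 2 Control. In the same groups Col1a2 averaged 254 and 299, Fbln1 283 and 339, and Ogn 50.4 and 52.7. After depletion in Type 2 the mean counts of Col1a2 (343) and Ogn (69.6) were higher, and those of the other fibroblast genes lower. Between the controls 1 of the 7 was called higher, Col3a1, a fibrillar collagen (log2 2.25, SE 0.45, adjusted p = 0.00899), and 0 of the 7 were called after depletion in Type 2. Between the depleted tumours 2 of the 7 were called higher in Type 2, Lum and Col3a1, beside 0.0567% of all genes. Of 6 genes of oligodendrocyte progenitors, 4 were called higher in Type 2 than in Type 1 Control tumours, led by Sox10, a glial transcription factor (151 ± 91.0 in Type 1, n = 5, and 3232 ± 1284 in Type 2, n = 4; SD; log2 4.56, SE 0.49, adjusted p = 9.31e-05). Sox10 was also the 1 of these 6 called lower after depletion in Type 2 (log2 -2.01, SE 0.52, adjusted p = 0.0424). The part of these cell types in the Prrx1 differences was not tested.

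Runx1 and Runx2 encode runt-domain factors that bind DNA with the partner CBFβ, Runx1 as a regulator of blood formation and Runx2 of bone formation (Runx1 at chr16:92601466-92826149 and Runx2 at chr17:44495987-44814797, both minus strand). Their RefSeq windows are shown because the upstream Runx1 promoter and the Runx2 promoter share a stretch that spells the runt-domain motif. In both the capitals mark ACCACA, searched on both strands. The shared stretch is 22 bases, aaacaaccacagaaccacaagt, shortly after the start in each.

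Runx1 upstream window, chr16:92826025-92826324: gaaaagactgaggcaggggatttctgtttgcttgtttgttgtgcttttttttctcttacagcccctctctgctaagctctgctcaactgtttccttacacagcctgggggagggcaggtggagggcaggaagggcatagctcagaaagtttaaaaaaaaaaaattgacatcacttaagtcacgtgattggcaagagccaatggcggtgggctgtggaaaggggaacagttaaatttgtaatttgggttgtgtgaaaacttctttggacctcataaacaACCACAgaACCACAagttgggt
Runx2 window, chr17:44814578-44814877: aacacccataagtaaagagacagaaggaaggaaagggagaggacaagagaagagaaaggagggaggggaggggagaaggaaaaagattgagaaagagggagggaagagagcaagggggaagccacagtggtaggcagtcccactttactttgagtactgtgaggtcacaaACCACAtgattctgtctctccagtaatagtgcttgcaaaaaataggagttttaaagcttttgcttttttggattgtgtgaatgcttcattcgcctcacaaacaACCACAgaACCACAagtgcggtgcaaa

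ACCACA was found in 16.76% of 32851 RefSeq windows of 300 bases, at 2 or more places in 1.81% and at 3 or more in 0.183%. The second, downstream Runx1 window held none. The Runx2 window also held TTGCNNAA, found in 10.8% of windows, and TTCNNNGAA, found in 8.3% of windows, was in neither. These matches describe letters and not binding.

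Runx1 stood at 117, 136, 119, 87.4 and 88.4 normalized counts in Type 1 Control tumours 1 to 5 and at 45.5, 61.7 and 25.8 in Type 1 TAM depleted tumours 1 to 3. Type 2 Control tumours 1 to 4 had 193, 558, 581 and 472, and Type 2 TAM depleted tumours 1 to 4 had 228, 118, 74.4 and 208. The Type 2 Controls lay above all Type 1 libraries, while Control 1 fell within the range of the Type 2 depleted tumours. Between the controls Runx1 was 3.82-fold higher in Type 2 (log2 1.93, SE 0.39, limma-trend adjusted p = 0.00996). That call was lost in 2 of 26 alternatives, the high-background libraries alone (adjusted p = 0.0782) and the replicate block (adjusted p = 0.0738). After depletion in Type 2 it fell 2.89-fold, from 451 ± 178 to 157 ± 72.9 (SD, n = 4 each; log2 -1.53, SE 0.41, adjusted p = 0.0496). The log2 difference was -1.42 in the high-background and -1.64 in the low-background libraries. Over 28 alternatives it ran from -1.90 to -1.22, with adjusted p-values from 0.0237 to 0.283.

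In Type 1, Runx1 was lower without overlap in the depleted tumours, as were 28.6% of all genes (log2 -1.35, SE 0.43, adjusted p = 0.103). It was called in the Type 1 table alone, which called 32.6% of all genes lower (log2 -1.03, SE 0.31, adjusted p = 0.0169). Between the depleted tumours it was higher in Type 2 without overlap (log2 1.75, SE 0.45, adjusted p = 0.138). All 12 macrophage genes had fold changes below 0 after depletion in Type 2, with a median of -1.39, and 3 were called, Adgre1 (F4/80), Ptprc (CD45) and Fcer1g. Between the controls all 12 were above 0, with a median of 1.23, and 0 were called. At an unadjusted p under 0.05 there were 9, beside 3638 of all 26463 genes. The part of macrophage RNA in the Runx1 differences was not tested.

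Runx2 stood at 119 ± 45.1 in Type 1 Control (n = 5), 74.6 ± 19.7 in Type 1 TAM depleted (n = 3), 245 ± 126 in Type 2 Control and 196 ± 69.6 in Type 2 TAM depleted tumours (n = 4 each; SD). Its highest library was Type 2 Control 2, at 430.1. Between the controls the log2 difference was 0.99 (SE 0.36, adjusted p = 0.177) and after depletion in Type 2 it was -0.28 (SE 0.38, adjusted p = 0.718). Between the depleted tumours, Type 2 libraries (112 to 274) lay above Type 1 libraries (62.3 to 97.4) without overlap (log2 1.34, SE 0.41, adjusted p = 0.213). Per kilobase, Runx1 made up 41.4 ± 6.64% of Runx1 plus Runx2 in Type 1 Control, 30.9 ± 13.1% in Type 1 TAM depleted, 56.9 ± 15.4% in Type 2 Control and 36.4 ± 8.27% in Type 2 TAM depleted tumours (SD, n = 5, 3, 4 and 4), and these shares overlapped between Control and depleted tumours of each kind. The third relative, Runx3, a factor of lymphocytes and other immune cells, was called lower after depletion in Type 2 (158 ± 75.9 to 36.2 ± 21.7, SD, n = 4 each; log2 -2.20, SE 0.59, adjusted p = 0.0491). Runx3 passed narrowly, and its call was not followed over the alternative analyses. All 6 T cell genes (Cd3d, Cd3e, Cd3g, Cd2, Cd4 and Cd8a) were below 0 in the same comparison, with a median of -2.23. Of these, 0 were called by limma-trend, 4 had an unadjusted p under 0.05 and 3 were lower without overlap of the groups. Over all 26463 genes, 4755 had an unadjusted p under 0.05 and 3.39% were lower without overlap. Their summed level was 282.7 to 411.2 in Type 2 Control and 26.2 to 319.6 in Type 2 TAM depleted tumours, and none of the 6 was at 0 in a group. The part of T cells in the Runx3 difference was not tested.

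Snai1 and Snai2 encode zinc-finger repressors that bind E-boxes of the letters CAGGTG. Snai1 (chr2:167538195-167542814, plus strand) is shown with its promoter window because it holds such an E-box itself. The capitals mark it as CACCTG, the same motif read on the other strand. CAGGTG was found on either strand in 20.21% of the 32851 windows, including the upstream Runx1 window above.

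Snai1 window, chr2:167537945-167538244: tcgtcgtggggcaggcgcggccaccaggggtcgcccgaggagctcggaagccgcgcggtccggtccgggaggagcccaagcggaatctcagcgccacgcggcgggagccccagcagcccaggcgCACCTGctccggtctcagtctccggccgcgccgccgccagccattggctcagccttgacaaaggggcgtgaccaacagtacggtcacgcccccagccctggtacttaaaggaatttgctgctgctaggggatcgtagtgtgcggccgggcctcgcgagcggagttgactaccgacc

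Snai1 and Snai2 (chr16:14705852-14709385, plus strand) were the lowest of the 9 by mean count in each group except Type 2 Control. There Cebpb (69.8) averaged less than Snai2 (74.2). Counting error weighs most on such low counts. Snai1 had 2 to 55 reads per library and Snai2 6 to 144. Snai2 stood at 14.5, 28.7, 28.8, 39.2 and 14.4 normalized counts in Type 1 Control tumours 1 to 5 and at 5.62, 3.63 and 6.87 in Type 1 TAM depleted tumours 1 to 3. Type 2 Control tumours 1 to 4 had 82.2, 22.8, 128 and 63.5, and Type 2 TAM depleted tumours 1 to 4 had 3.98, 25.1, 12.9 and 45.9. In Type 1 all depleted libraries were below all controls, and in Type 2 the groups overlapped at Control 2. The log2 change after depletion was -1.96 in Type 1 (SE 0.67, adjusted p = 0.103) and -1.90 in Type 2 (SE 0.65, adjusted p = 0.120). In Type 1, depletion and background cannot be told apart. With background as a term, which only Type 2 libraries could estimate, the Type 1 value became -0.68. The Type 2 change was past the threshold in 3 of 28 alternatives: with background as a term (adjusted p = 0.0392), without Type 2 Control 2 (0.0475) and without Type 2 TAM depleted 4 (0.0468). In Type 1 it passed in the Type 1 table alone, which called 32.6% of all genes lower (log2 -1.67, SE 0.43, adjusted p = 0.00862). Between the controls the difference was 1.39 (SE 0.62, adjusted p = 0.321).

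Snai2 was the 1 factor of the 9 whose level in Type 2 was lower in the low-background than in the high-background libraries, by a log2 difference of -1.28. Snai1 averaged 17.5 ± 7.15 in Type 1 Control (n = 5), 7.87 ± 4.77 in Type 1 TAM depleted (n = 3), 22.9 ± 10.8 in Type 2 Control and 11.4 ± 4.72 in Type 2 TAM depleted tumours (n = 4 each; SD). Its log2 changes after depletion were -1.12 in Type 1 (SE 0.62, adjusted p = 0.219) and -0.89 in Type 2 (SE 0.60, adjusted p = 0.461), and the groups overlapped in both.

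Twist1, a basic helix-loop-helix factor of mesoderm and neural crest (chr12:33957671-33959829, plus strand), had 1 to 31 reads per library. In the Type 1 table it stood at 15.4, 11.03, 8.17, 9.55 and 23.02 normalized counts in Control tumours 1 to 5 and at 4.22, 6.65 and 1.99 in TAM depleted tumours 1 to 3. The groups did not overlap (log2 -1.46, SE 0.48, limma-trend adjusted p = 0.0238 in that table). The same fit called 32.6% of all genes lower, and depletion cannot be told apart from background and depth there. In the Type 2 table it stood at 3.68, 5.68, 28.6 and 9.68 in Control and at 5.25, 16.04, 7.67 and 10.4 in TAM depleted tumours, which overlapped (log2 0.02, SE 0.89, adjusted p = 0.993). The 2 tables were normalized separately, so its levels were not compared between tumour kinds.

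Zeb1 (chr18:5591860-5775467, plus strand) and Zeb2 (chr2:44983632-45117395, minus strand) encode zinc-finger homeobox repressors. Zeb2 stood at 1208, 1421, 2582, 1545 and 1200.0 normalized counts in Type 1 Control tumours 1 to 5 and at 3318, 2381 and 2548 in Type 1 TAM depleted tumours 1 to 3. Type 2 Control tumours 1 to 4 had 4686, 6945, 3504 and 2923, above all Type 1 Controls. Type 2 TAM depleted tumours 1 to 4 had 4787, 4070.2, 4049 and 2127, within or below that range. Between the controls Zeb2 was 2.80-fold higher in Type 2 (log2 1.49, SE 0.34, adjusted p = 0.0212). The call was lost in 7 of 26 alternatives, with an adjusted p of 0.0974 at most: in the high-background libraries alone, with the replicate block, and without Type 1 Control 1, 2, 4 or 5 or Type 2 Control 2. Its log2 change after depletion was -0.25 in Type 2 (SE 0.36, adjusted p = 0.734) and 0.84 in Type 1 (SE 0.37, adjusted p = 0.144). The difference of those responses was -1.08 (SE 0.51, unadjusted p = 0.0507, adjusted p = 0.497).

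Zeb1 differed between the background sets. In Type 2 the high-background libraries had 561, 615, 1867 and 921 normalized counts and the low-background ones 3262, 1601, 3748 and 1406, a log2 difference of 1.38 that was the largest of the 9 factors. In Type 1 the depleted tumours had 1027, 1134 and 1365 and the controls 502 to 985, without overlap (log2 0.55, SE 0.52, adjusted p = 0.449). With background as a term, which only Type 2 libraries could estimate, the Type 1 value became -0.83. Between the controls the difference was 0.54 (SE 0.48, adjusted p = 0.611) and after depletion in Type 2 it was 0.58 (SE 0.50, adjusted p = 0.571). Within the high-background libraries that Type 2 difference was 1.16 without overlap, and within the low-background ones it was 0.01 with overlap, with 2 against 2 libraries in each. Zeb1 per kilobase was 50.4 ± 8.50% of Zeb1 plus Zeb2 in Type 1 Control (n = 5) and 35.9 ± 16.2% in Type 2 Control tumours (n = 4; SD), and the groups overlapped. High-background Type 2 Controls 1 and 3 had 18.9% and 25.4%. Low-background Type 2 Controls 2 and 4 had 47.7% and 51.55%.

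Stat3 encodes the transcription factor downstream of interleukin-6 family receptors and Janus kinases (chr11:100885098-100939540, minus strand). It stood at 563, 614, 509, 611 and 354 normalized counts in Type 1 Control tumours 1 to 5 and at 489, 704 and 709.8 in Type 1 TAM depleted tumours 1 to 3. Type 2 Control tumours 1 to 4 had 826, 1700.0, 1076 and 2213, above every Type 1 library. Type 2 TAM depleted tumours 1 to 4 had 1435, 1203, 925 and 692 and overlapped the controls. Between the controls Stat3 was 2.60-fold higher in Type 2 (log2 1.38, SE 0.31, limma-trend adjusted p = 0.0208). The call was lost in 5 of 26 alternatives, in the high-background libraries alone (log2 0.86, adjusted p = 0.184), with the replicate block, and without Type 1 Control 5, Type 2 Control 2 or Type 2 Control 4. After depletion the log2 change was -0.40 in Type 2 (SE 0.33, adjusted p = 0.554) and 0.27 in Type 1 (SE 0.34, adjusted p = 0.579). The Type 1 value turned to -0.61 with background as a term, which only Type 2 libraries could estimate. With upper quartile scaling it was -0.13, and it was called in neither. In Type 2 the low-background libraries (1203 to 2213) lay above the high-background ones (692 to 1076).

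Around Stat3, 1 of 20 measured pathway genes was called higher between the controls and 0 lower: Il6st, the shared receptor chain gp130 (624 ± 143 in Type 1, n = 5, and 1441 ± 411 in Type 2, n = 4; SD; log2 1.20, SE 0.32, adjusted p = 0.0495). The median of the 20 was 0.57. Jak1, a kinase of the same receptors, had a log2 difference of 0.97 (SE 0.36, adjusted p = 0.197). After depletion in Type 2, 1 of 20 rose, Cntfr, the receptor for ciliary neurotrophic factor (136 ± 57.9 to 464 ± 233, SD, n = 4 each; log2 1.80, SE 0.40, adjusted p = 0.0241), and the median was -0.39. Among 11 measured relatives of the 10 factors, Cebpd, a C/EBP paralogue, was the 1 called higher between the controls (log2 1.44, SE 0.32, adjusted p = 0.0178).

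Cebpb, which encodes C/EBPβ (chr2:167688915-167690418, plus strand), was not called in any comparison. It averaged 46.9 ± 22.9 in Type 1 Control (n = 5), 30.2 ± 23.7 in Type 1 TAM depleted (n = 3), 69.8 ± 65.9 in Type 2 Control and 49.9 ± 16.5 in Type 2 TAM depleted tumours (n = 4 each; SD). The Type 2 Control mean rests on Control 2, at 168 against 27.6 to 44.2 in the other three. The log2 difference between the controls was 0.34 (95% interval -0.83 to 1.51, adjusted p = 0.759) and turned to -0.20 without that library. Exons of Tmem189 on the opposite strand overlap 20.7% of the Cebpb exons, and the library kit does not mark strand, so reads there cannot be assigned to either gene. For the other factors the overlapped share of exons was 5.9% or less.

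Of 17 measured structural and secreted genes of the mesenchymal state, 8 were called higher in Type 2 than in Type 1 Control tumours and 0 lower, and all 17 fold changes were above 0, with a median of 1.46 against -0.23 over all genes. Lgals1, a galectin, stood at 189 ± 95.2 in Type 1 (n = 5) and 2631 ± 1784 in Type 2 Control (n = 4; SD; log2 3.65, SE 0.51, adjusted p = 0.000676). Fn1, fibronectin, stood at 1060.0 ± 112 and 20759 ± 19602 (log2 3.49, SE 0.76, adjusted p = 0.0152), with Type 2 values from 3214 to 37852. Vim, the intermediate filament vimentin (log2 2.24, SE 0.40, adjusted p = 0.00444), and Cd44, a hyaluronan receptor (log2 2.19, SE 0.37, adjusted p = 0.00285), were also called, as were Tagln2, Thbs1, Itga5 and Timp1.

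After depletion in Type 2, 13 of the 17 were below 0, with a median of -1.04 against -0.21 over all genes, and 1 was called. That gene was Thbs1, the matrix protein thrombospondin-1 (396 ± 138 to 122 ± 52.8, SD, n = 4 each; log2 -1.72, SE 0.41, adjusted p = 0.0311). At an unadjusted p under 0.05 there were 10, beside 4755 of all 26463 genes. Fn1 changed by -2.52 (SE 0.80, adjusted p = 0.0909) and Lgals1 by -1.80 (SE 0.54, adjusted p = 0.0725), neither called. In Type 1, 0 of 17 were called after depletion, with a median of 0.02. At an unadjusted p under 0.05 there were 2, beside 8019 of all genes.

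**Figure D3:**
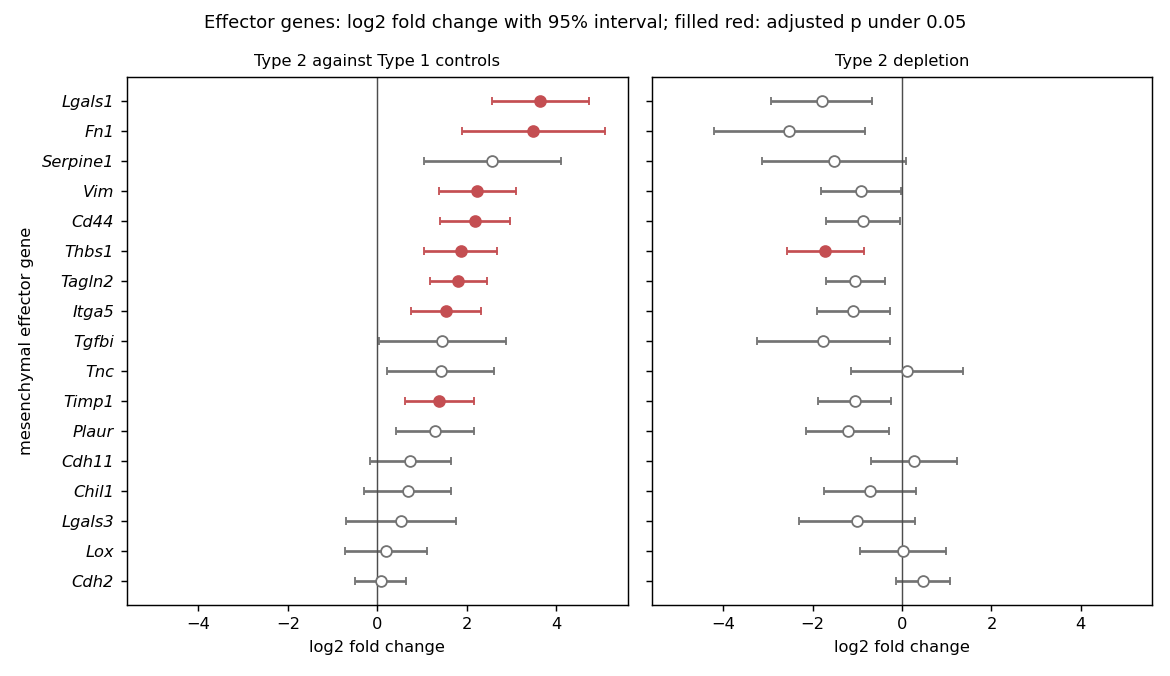
Log2 fold change of 17 mesenchymal effector genes between the controls (left, Type 2 minus Type 1) and after depletion in Type 2 (right, TAM depleted minus Control), with 95% intervals from limma-trend. Filled red points passed an adjusted p of 0.05, 8 genes on the left and Thbs1 on the right.

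Among other regulators of the state, 2 of 12 were called higher between the controls, the Hippo pathway co-activators Yap1 (log2 1.59, SE 0.33, adjusted p = 0.0127) and Wwtr1, which encodes TAZ (log2 1.29, SE 0.33, adjusted p = 0.0415). In the same comparison 1 was called lower, Zbtb18, a repressor of mesenchymal genes in glioma (2883 ± 1196 in Type 1, n = 5, and 650.0 ± 342 in Type 2, n = 4; SD; log2 -2.17, SE 0.45, adjusted p = 0.0115). Tead1, a DNA-binding partner of both co-activators, had a log2 difference of 0.03 (SE 0.27, adjusted p = 0.956). After depletion in Type 2, 0 of 12 were called, 11 were below 0 and the median was -0.74. Of 13 dimer partners, inhibitors and co-repressors, 0 were called in either comparison. The 2 most abundant, Tcf4 and Tcf12, partners of TWIST1, had log2 differences of -0.16 (SE 0.50) and 0.75 (SE 0.47) between the controls. Of 12 measured epithelial genes, Cdh1 among them, 0 were called in the 5 comparisons. After depletion 11 of these were below 0 in Type 1, with a median of -1.36 against -0.06 over all genes. In Type 2, 9 were below 0, with a median of -0.63 against -0.21 over all genes.

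Neuronal genes had their lowest mean summed level, 2532, in Type 2 Control tumours. Of 8, 3 were called lower in Type 2 than in Type 1 Control (median -2.78), and 6 were called higher after depletion in Type 2 (median 3.60). Their summed level ranged from 859.2 to 7143.2 in Type 2 Control and from 7873.7 to 60916.1 in Type 2 TAM depleted tumours, and none of the 8 was at 0 in a group. Zbtb18 likewise had its lowest mean, 650.0, in Type 2 Control tumours, and averaged 2015 in Type 2 TAM depleted tumours. The part of surrounding brain in the levels of the 9 factors and of Zbtb18 was not tested.

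The factors were compared with each other over the 16 libraries after the mean of each background set was removed, as a description, since the libraries share groups and depth. Of 36 pairs, 32 correlations were above 0 and 14 above 0.5, with a median Pearson r of 0.44. Prrx1 was most like Snai2 (r = 0.90, Spearman 0.79) and Runx1 (r = 0.87, Spearman 0.92), and Runx1 was like Stat3 (r = 0.81, Spearman 0.79). Without the 2 libraries farthest from the Prrx1 median, r was 0.83 with Snai2 and 0.78 with Runx1. When group means were removed instead, the median over the 36 pairs was 0.16 and 5 were above 0.5. Among Prrx1, Snai2, Runx1 and Stat3, whose 6 pairs had run from 0.67 to 0.90, r was then 0.51 for Prrx1 with Snai2, 0.43 for Prrx1 with Runx1, 0.33 for Runx1 with Stat3 and 0.16 for Prrx1 with Stat3. It was below 0 for Runx1 with Snai2 (-0.18) and Snai2 with Stat3 (-0.41). The highest 2 of the 36 were Zeb1 with Stat3 (0.81) and Runx1 with Snai1 (0.76).

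**Figure D4:**
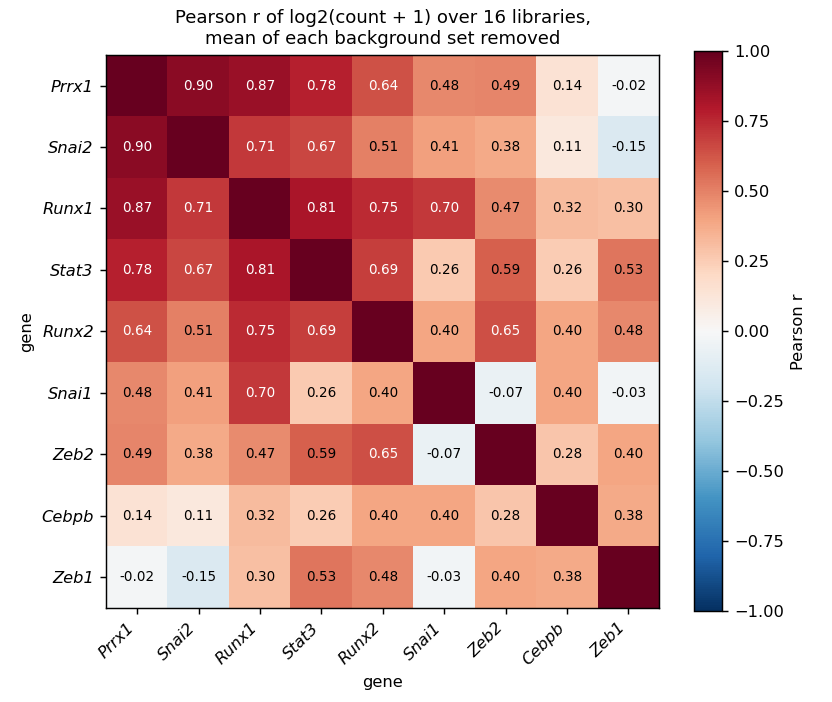
Pearson r between 9 transcription factors over 16 libraries, computed on log2(normalized count + 1) after removing the mean of each background set, with red above 0 and blue below. Prrx1, Snai2, Runx1 and Stat3 form the block of high values at the upper left (0.67 to 0.90), which ran from -0.41 to 0.51 once group means were removed, and the lowest value is -0.15 between Snai2 and Zeb1.

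Genes with a mean of 50 or more, 12827 in all, were compared over 16 libraries after the mean of each background set was removed. Group means were not removed here, so differences between the groups enter these values. Those most like Prrx1 were Fam114a1 (r = 0.98), Slc26a2, a sulfate transporter of cartilage (0.98), and Fkbp14, a collagen-folding enzyme (0.97). Fam114a1 averaged 54.1 normalized counts in Type 1 Control, 49.3 in Type 1 TAM depleted, 538 in Type 2 Control and 108 in Type 2 TAM depleted tumours. Runx1 was most like Col9a1, a cartilage collagen (0.98), Rbpjl (0.95) and Sec16b (0.94), and Col9a1 averaged 119.5, 35.8, 1647 and 213 in the same groups. Stat3 was most like Tns3 (0.95), Afap1l2 (0.95) and Gab1, an adaptor of receptor tyrosine kinases (0.95). Zeb1 was most like Arl4a (0.95), Cerox1 (0.92) and the glial factor Sox8 (0.91), and Snai2 most like Bcas3os1 (0.96), Lgi4 (0.94) and Dhrs3 (0.94). The nearest genes were Jak3 (0.90) for Snai1, Colgalt2 (0.89) for Runx2, Lrch3 (0.86) for Zeb2 and Tmed9 (0.80) for Cebpb, whose levels were matched least closely.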

How the data were processed

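Per the labels' protocols, TRIzol lysates of 16 tumours were purified on miRNeasy Micro columns, and the SMART-Seq v4 kit for low inputs, which does not mark strand, was used for the libraries. The authors used STAR 2.7.8a, GRCm38 and DESeq2, per the submitters' processing notes. The sources used here give no counting tool, annotation or version of the latter. The authors deposited gene values on a log2 scale, in 1 table of all libraries and 1 of each tumour kind. These variance-stabilized log2 values were inverted to normalized counts, and 100% of the results were whole multiples, within 0.05 reads, of a step that belonged to the library. That step gave the reads and size factors.

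Genes with 10 or more normalized counts in at least 3 libraries were tested (26463). The test was limma-trend on log2(normalized count + 1), run in R 4.3.3 with limma 3.58.1. The 4 group means were fitted together (12 residual degrees of freedom, prior 4.74), and tests were 2-sided. Other steps ran in Python 3.11.15 with pandas 2.3.3. Groups and replicate numbers came from the titles. The 10 factors, the 18 gene lists and the tests were chosen with earlier results of these data known. Named besides the factors were, from each list, up to 3 genes with the smallest p among those called in a comparison and the 2 with the highest mean, and for each factor the 3 genes most alike in pattern. Serving as examples outside that rule, and chosen after their values were seen, were Itga5 and Timp1. Gene positions were taken from GENCODE vM21 (GRCm38, 1-based), in which 96.5% of symbols had a match, and promoter windows of 8 of the 10 factors from RefSeq (GRCm38.p6). Alternatives were other pseudocounts, filters and scalings, limma-voom on the recovered reads, background as a term, each background set alone, the table of 1 tumour kind, a replicate block and leaving out each library. Every 2 libraries of a group differed by more than sampling noise (chi-square over degrees of freedom 9.07 or more). Reads carry no molecular identifiers.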

Additional observations from a re-analysis of the deposited data

Results flagged for a closer look

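In 3 of 30 groups of 4 or 5 libraries tested, 1 library lay far from the rest of its group, where chance gives about 1 in 20 groups. Cebpb stood at 168 normalized counts in Type 2 Control 2, against 27.6 to 44.2 in the other three controls. Snai1 stood at 4.31 in Type 2 TAM depleted 3, a value of 4 reads, against 13.1 to 14.4 in the rest of the group. Zeb2 stood at 2582 in Type 1 Control 3, against 1200.0 to 1545 in the rest of the group.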

How the results depend on the processing

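Of 1000 alternative values over 38 single-factor results, 944 kept direction and side of the threshold. Another 34 lost a call, 7 gained one and 15 changed sign, and the cause was not tested. Only results called in the main analysis, 4 between the controls and 2 in Type 2 depletion, could lose a call. Most values that kept their side belonged to results not called there. Calls of single genes other than the factors were not followed over the alternatives, among them Runx3, Sox10 and Il6st, which lay near the threshold. The 9 factors between the controls went from 4 called to 1 in the high-background libraries alone, 1 with the replicate block and 2 to 4 when 1 library was left out. In Type 2 depletion they went from 2 called to 1 in the high-background libraries, 0 in the low-background libraries, 1 at a pseudocount of 0.5, 1 with the replicate block, 0 in the Type 2 table alone and 1 to 3 with 1 library left out. In Type 1 depletion they went from 0 to 5 in the Type 1 table alone, which includes Twist1.

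Sign changes were as follows. Between the controls, background as a term gave -0.12 for Cebpb, -0.13 for Snai1 and -0.15 for Zeb1, and the high-background libraries alone gave -0.34, -0.14 and -0.44. With 1 library left out, Cebpb ranged from -0.20 (without Type 2 Control 2) to 0.65. In Type 1 depletion, background as a term gave -0.61 for Stat3 and -0.83 for Zeb1, with the term estimated from Type 2 libraries alone. Upper quartile scaling gave -0.13 for Stat3. In Type 2 depletion, Cebpb was 0.28 in the high-background libraries alone, while with 1 library left out it ranged from -0.48 to 0.38 (without Type 2 Control 2), Runx2 from -0.46 to 0.033 (without Control 2) and Zeb2 from -0.43 to 0.0054 (without TAM depleted 4).

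Genes called in Type 2 depletion went from 956 to 2635 with background as a term, 580 and 0 in the high- and low-background libraries, 297 with the replicate block, 0 in the Type 2 table alone and 100 to 1258 with 1 library left out. Those between the controls went from 819 to 2343 with limma-voom (902 higher, 1441 lower), 347 with the replicate block and 510 at the fewest with 1 library left out. In Type 1 depletion they went from 0 to 16381 in the Type 1 table alone and 2 without Type 2 Control 1 or TAM depleted 4. Between the depleted tumours they went from 49 to 215 with background as a term, 20 in the low-background libraries, 16 with the replicate block and 12 to 234 with 1 library left out. The difference of responses went from 0 to 166 with background as a term and 1 with the replicate block. In Type 2 depletion limma-voom called 653 higher and 595 lower. Libraries with the same replicate number did not deviate together in general (correlations of -0.675 to 0.495), so the numbers were not taken to pair tumours.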
